A study of Mus musculus with 6 samples.

Results

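The genes described here are 33 listed members of glycolysis and of the cellular response to low oxygen, of which 30 matched a row of the 23930 amplicons in the table by symbol. The other 3 (Pgk1, Pgam1 and Eno1) were not analysed here. Total RNA came from the shaft of the humerus at stage E16.5, with 3 control and 3 Stat3 knockout samples. Controls had the genotype Stat3C/+ (1 copy of the conditional allele) and are called wild type in the labels. Knockouts had the genotype Prrx1Cre; Stat3C/C. Prrx1Cre acts in limb bud mesenchyme, which forms bone, cartilage and tendon, so muscle fibres, vessels and blood cells in the same RNA keep the gene. No control is labelled with Prrx1Cre, so an effect of the driver itself and one of the deletion cannot be told apart. Whether each sample came from its own embryo is not stated, so p-values here reflect the scatter among these libraries, part of which may be technical.

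Glycolysis turns glucose into pyruvate in the cytosol, and lactate dehydrogenase turns pyruvate into lactate, which leaves the cell through monocarboxylate transporters. Growth plate cartilage and bone-forming cells rely on it heavily, and the centre of the growth plate is poorly supplied with oxygen. When oxygen falls, prolyl hydroxylases no longer mark HIF-1 alpha for destruction. The HIF dimer then binds short sites, often with the core ACGTG, near genes for glycolytic enzymes, vessel growth and mitochondrial turnover. STAT3, a transcription factor that acts downstream of IL-6 family cytokines, is known to work with HIF-1 on some of these genes in other cells.

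Values are RPM, the reads of an amplicon scaled to 1000000 reads of the library. The panel reads 1 short amplicon for each gene, and amplicons differ in how well they amplify, so RPM levels are compared between libraries and never between genes. Depth was 9126493 to 13376550 reads per library, and the 30 members had 18 to 24456 reads in any library. The Stat3 amplicon itself was at 211, 201 and 211 RPM in the control libraries against 208, 201 and 170.1 in the knockouts, with a log2 fold change of -0.11 ± 0.08 (SE, limma, adjusted p = 0.380). No source used here places this amplicon relative to the deleted part, so it checks nothing about the labels. The bone label was checked against 8 osteoblast markers, all read in every library, with Col1a1 at 26596, 28813 and 30725 RPM in the controls. Muscle markers were read as well, with Acta1 at 3924, 3711 and 3603 RPM in the controls. Reads may be shared with processed pseudogenes, which Ldha and Aldoa among others have, where an amplicon lies in a copied exon. In such bulk RNA, fewer cells of a type and less RNA per cell cannot be told apart.

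Most members did not pass the test, and the few that did went both ways. All 30 had a mean of at least 1 RPM and were tested, with limma on log2(RPM + 1) and Benjamini-Hochberg adjustment over all 12846 amplicons tested. In the knockout 3 rose (Ldha, Aldoa and Ddit4), 3 fell (Pkm, Slc16a1 and Ero1l), and 24 did not pass an adjusted p of 0.05. That is 20.0% of the members, beside 16.7% of all amplicons tested. In each direction 3 of 30 passed, where 5.71% of all amplicons were higher and 11.0% lower. The groups did not overlap for 5 members with the knockout above and 6 with the knockout below, where 11.9% and 21.9% of all tested amplicons did the same. The members' median log2 fold change was -0.05, and that of all tested amplicons -0.06. Taken apart, the 17 glycolysis genes had 2 higher and 2 lower with a median of -0.06 (3 and 1 with TMM, edgeR and DESeq2), and the 13 hypoxia genes 1 higher and 1 lower with a median of -0.04. With TMM scaling 4 members were higher and 2 lower, where 8.11% and 7.22% of all amplicons (15.3% in either direction) were called. With edgeR on the recovered reads the members gave the same counts beside 8.19% and 7.18%, and with DESeq2 beside 7.92% and 6.15%. The order of the 2 directions over all amplicons thus turned with the scaling, as 34.2% of all calls were higher with the deposited scaling and 52.9% with TMM.

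Promoter sequence is shown for the 6 members that passed, to show where the letters ACGTG lie in each. Other forms of the HIF site were not searched, so a window without ACGTG may still hold one. RefSeq windows (GRCm38.p6) run from 250 bases before to 50 after a transcript start and matched 29 of the 30 measured members, with Ero1l listed there as Ero1a. Ndrg1 had no entry. Capitals mark each ACGTG on either strand (CACGT when read on the other strand), and overlapping matches count as 1 site, as in CACGTG. That palindrome is also an E-box, the site of MYC and USF factors. Where a gene had several windows the one with the most sites is printed, the first listed if tied.
Ldha (chr7:46845554-46845853, plus strand): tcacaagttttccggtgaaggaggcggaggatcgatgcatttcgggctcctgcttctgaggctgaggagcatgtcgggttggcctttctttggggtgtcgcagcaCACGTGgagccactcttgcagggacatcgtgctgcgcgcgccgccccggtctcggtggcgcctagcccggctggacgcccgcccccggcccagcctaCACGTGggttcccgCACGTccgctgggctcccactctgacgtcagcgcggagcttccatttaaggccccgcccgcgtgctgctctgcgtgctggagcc
Aldoa (chr7:126799205-126799504, minus strand): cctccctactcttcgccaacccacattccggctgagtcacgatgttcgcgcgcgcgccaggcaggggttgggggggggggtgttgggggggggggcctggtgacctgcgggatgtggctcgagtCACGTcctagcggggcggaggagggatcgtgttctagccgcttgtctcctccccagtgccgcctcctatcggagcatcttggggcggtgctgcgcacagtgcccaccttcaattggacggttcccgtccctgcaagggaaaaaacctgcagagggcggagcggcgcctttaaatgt
Pkm (chr9:59656977-59657276, plus strand): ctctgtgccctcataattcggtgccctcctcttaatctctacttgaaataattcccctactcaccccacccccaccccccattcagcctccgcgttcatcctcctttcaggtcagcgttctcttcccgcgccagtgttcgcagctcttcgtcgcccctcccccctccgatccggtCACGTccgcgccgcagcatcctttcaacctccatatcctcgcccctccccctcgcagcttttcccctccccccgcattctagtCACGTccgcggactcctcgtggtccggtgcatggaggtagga
Slc16a1 (chr3:104638414-104638713, plus strand): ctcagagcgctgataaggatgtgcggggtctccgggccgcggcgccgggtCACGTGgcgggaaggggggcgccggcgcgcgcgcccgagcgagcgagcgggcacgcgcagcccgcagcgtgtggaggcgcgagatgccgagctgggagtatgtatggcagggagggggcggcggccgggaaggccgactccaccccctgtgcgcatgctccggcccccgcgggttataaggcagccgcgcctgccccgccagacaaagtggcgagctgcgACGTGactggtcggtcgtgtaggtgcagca
Ero1l (chr14:45318523-45318822, minus strand): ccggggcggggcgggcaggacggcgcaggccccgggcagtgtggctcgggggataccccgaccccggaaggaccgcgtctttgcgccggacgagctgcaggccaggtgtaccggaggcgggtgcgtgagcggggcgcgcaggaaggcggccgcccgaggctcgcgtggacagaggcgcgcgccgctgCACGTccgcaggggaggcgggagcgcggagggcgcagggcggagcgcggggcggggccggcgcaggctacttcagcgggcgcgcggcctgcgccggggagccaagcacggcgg
Ddit4 (chr10:59951721-59952020, minus strand): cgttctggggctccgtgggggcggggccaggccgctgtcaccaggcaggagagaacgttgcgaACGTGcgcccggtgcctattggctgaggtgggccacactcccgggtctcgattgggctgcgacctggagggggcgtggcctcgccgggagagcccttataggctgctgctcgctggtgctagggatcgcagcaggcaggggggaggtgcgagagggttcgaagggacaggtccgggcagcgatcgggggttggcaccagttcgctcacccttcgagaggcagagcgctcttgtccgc

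The printed Ldha window held 3 sites, at bases -145, -48 and -34 from the start, and 2 of them form the palindrome. Slc16a1 held 2 sites, at -200 and 21, of which that at -200 also forms the palindrome, and Pkm 2, at -75 and 9. Aldoa held 1 at -126, Ero1l 1 at -63 and Ddit4 1 at -187. So the genes that rose and the genes that fell both carried the letters. Ldha, Pkm and Aldoa each also had a window, not printed, that held no site. Over all members, 20 of 29 genes with a window (69.0%) had at least 1 site in any of their windows, against 28.5% of 9732 tested genes. The share was 64.7% for 17 glycolysis genes and 75.0% for 12 hypoxia genes. Counted by window it was 53.5% for members and 24.4% for tested genes. The members were listed for known roles, many of them as HIF targets, so this excess is no independent finding. Base composition was close, with a median GC content of 61.3% in the members' 43 windows and 60.7% in the 12478 windows of tested genes. Among tested genes, a site was present for 27.1% of those higher in the knockout, 29.9% of those lower and 28.4% of those that did not pass. The STAT dimer letters TTCNNNGAA, which read the same on both strands, were in a window of 3 of 29 members (Kdm3a, Aldoc and Pfkm) and of 8.13% of tested genes. None of these 3 passed the expression test. Such letters in this window are a description and not evidence of binding.

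The 3 members of glucose uptake and phosphorylation did not pass. Slc2a1, the main basal glucose transporter GLUT1, was at 32.4, 33.2 and 26.7 RPM in the control libraries against 31.4, 26.6 and 26.7 in the knockouts, with overlapping groups and a log2 fold change of -0.12 (95% interval -0.36 to 0.12, limma, adjusted p = 0.529). Hexokinases trap glucose in the cell as glucose-6-phosphate. Hk1 was at 30.2, 29.2 and 29.6 RPM in the control libraries against 27.0, 27.3 and 25.4 in the knockouts, where each knockout value lay below each control value, and its log2 fold change was -0.15 (interval -0.37 to 0.07, adjusted p = 0.342). Hk2, the inducible and HIF-responsive form, was at 44.2, 34.2 and 39.3 RPM in the control libraries against 40.4, 36.6 and 45.9 in the knockouts, with overlapping groups and a log2 fold change of 0.06 (interval -0.17 to 0.30).

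Upper glycolysis held 1 member that passed, the aldolase gene Aldoa. Gpi1, which turns glucose-6-phosphate into fructose-6-phosphate, was at 401, 423 and 443 RPM in the control libraries against 433, 391 and 384 in the knockouts and overlapped (log2 fold change -0.07). The phosphofructokinase genes make the committed step. The muscle form Pfkm was at 269, 263 and 249 RPM in the control libraries against 240.2, 243 and 239 in the knockouts, with no overlap and a small spread in the knockout, but a log2 fold change of -0.11 that did not pass (adjusted p = 0.320). The liver form Pfkl was at 17.5, 17.0 and 19.4 RPM in the control libraries against 19.1, 14.4 and 15.4 in the knockouts and overlapped. The platelet form Pfkp was level, at 32.8, 34.5 and 35.4 RPM in the control libraries against 31.4, 34.7 and 34.4 in the knockouts, and overlapped too. Pfkfb3 makes fructose-2,6-bisphosphate, the main activator of phosphofructokinase, and is a HIF target. Its values were 13.1, 15.3 and 9.28 RPM in the control libraries against 10.1, 10.3 and 9.61 in the knockouts. The spread was in the controls, where replicate 3 lay below all 3 knockout libraries, and the gene did not pass (log2 fold change -0.28, adjusted p = 0.238). It did without control replicate 3 (adjusted p = 0.0438).

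Aldolase splits fructose-1,6-bisphosphate into 2 triose phosphates. Aldoa, the form of muscle and most other tissues (AMPLAldoa_4_1.14414, chromosome 7, 126795234 to 126800751, GRCm38), was at 1196, 1283 and 1317 RPM in the control libraries against 1477, 1466 and 1542 in the knockouts. Each knockout library lay above each control library. It went from 1265 ± 62.3 to 1495 ± 40.9 RPM (SD over 3 libraries each), and its log2 fold change was 0.24 ± 0.07 (SE, limma, adjusted p = 0.0187). It passed in 13 of 19 fits, and the adjusted p was 0.102 without the filter on low values, 0.0527 with quantile normalization, 0.0878 without control replicate 1, 0.0603 without control replicate 2, 0.0528 without knockout replicate 2 and 0.0537 without knockout replicate 3. Over 19 fits it ranged from 0.00159 to 0.102, and the gene was higher in each of them. Aldoc, the brain form, was low at 3.01, 3.14 and 4.27 RPM in the control libraries against 3.30, 3.18 and 3.58 in the knockouts and overlapped. Tpi1, which interconverts the triose phosphates, was at 622, 615 and 579.9 RPM in the control libraries against 621, 629.6 and 562 in the knockouts (log2 fold change 0.00, interval -0.15 to 0.14).

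Lower glycolysis had the strongest fall among the 17 measured glycolysis members, at Pkm. Eno3 encodes beta enolase, the enolase of muscle. It was at 747, 793 and 834 RPM in the control libraries against 929, 896 and 902 in the knockouts, so that all knockout values lay above all control values, with a log2 fold change of 0.20 ± 0.07 and an adjusted p of 0.0504, just outside the threshold. It passed in 8 of 19 fits, at 0.0440 with the filter at 5 RPM, 0.0195 with TMM scaling, 0.0169 with median-of-ratios scaling, 0.0439 with robust variances, 0.0384 with sample weights, 0.0194 with edgeR, 0.00836 with DESeq2 and 0.0343 without control replicate 3. Pkm encodes the muscle-type pyruvate kinase, which makes pyruvate and ATP in the last step. Its transcripts M1 and M2 differ by 1 alternative exon, and the single amplicon does not say which was read. Pkm (AMPLPkm_1_1.6610, chromosome 9, 59656368 to 59679375) was at 1303, 1131 and 1059 RPM in the control libraries against 811, 945 and 844 in the knockouts. No knockout library reached the lowest control, and the gene fell from 1164 ± 125 to 867 ± 70.0 RPM (SD over 3 libraries each). The log2 fold change was -0.42 ± 0.08 (SE, limma, adjusted p = 0.00108), and the gene passed in 19 of 19 fits (adjusted p 3.89e-04 to 0.0233).

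Of the lactate dehydrogenase members 1 of 2 rose, and of the lactate transporter members 1 of 2 fell. Ldha, which favours turning pyruvate into lactate and is a classic HIF target (AMPLLdha_3_1.16452, chromosome 7, 46841475 to 46855627), was at 1572, 1828 and 1607 RPM in the control libraries against 2018, 2126 and 2182 in the knockouts. All 3 knockouts lay above all 3 controls. It rose from 1669 ± 139 to 2109 ± 83.5 RPM (SD over 3 libraries each), with a log2 fold change of 0.34 ± 0.07 (SE, limma, adjusted p = 0.00290). It passed in 18 of 19 fits (adjusted p 6.54e-05 to 0.0512) and missed only without the filter on low values. In that fit 20490 amplicons entered both the variance estimate and the adjustment. Ldhb, the partner subunit of oxidative tissue, was at 57.6, 54.8 and 50.3 RPM in the control libraries against 50.7, 54.5 and 56.5 in the knockouts and overlapped, with a log2 fold change of -0.01 (interval -0.21 to 0.19). The promoter window of Ldhb held no ACGTG, whereas the printed windows of Pkm and Slc16a1, which both fell, held 2 sites each. Whether the letters bear on these differences was not tested.

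Slc16a1 encodes the lactate transporter MCT1 (AMPLSlc16a1_2_1.15450, chromosome 3, 104638668 to 104658462). It was at 74.7, 70.9 and 67.6 RPM in the control libraries against 59.1, 59.5 and 56.6 in the knockouts, without overlap, and fell from 71.1 ± 3.58 to 58.4 ± 1.56 RPM (SD over 3 libraries each). Its log2 fold change was -0.28 ± 0.09 (SE, limma, adjusted p = 0.0358). This call was the least secure of the 6 and held in 9 of 19 fits. The adjusted p was 0.0932 with TMM scaling, 0.104 with median-of-ratios scaling, 0.103 with quantile normalization, 0.0934 with edgeR, 0.108 with DESeq2, 0.128 without control replicate 1, 0.102 without control replicate 2, 0.0594 without knockout replicate 1, 0.0794 without knockout replicate 2 and 0.0852 without knockout replicate 3. It ranged from 0.0293 to 0.128 over the 19 fits, and the gene was lower in each. Slc16a3, the HIF-induced exporter MCT4, was at 86.4, 82.9 and 85.1 RPM in the control libraries against 89.4, 87.3 and 68.4 in the knockouts, with knockout replicate 3 apart from the other knockouts and a log2 fold change of -0.06 (adjusted p = 0.710).

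**Figure D1:**
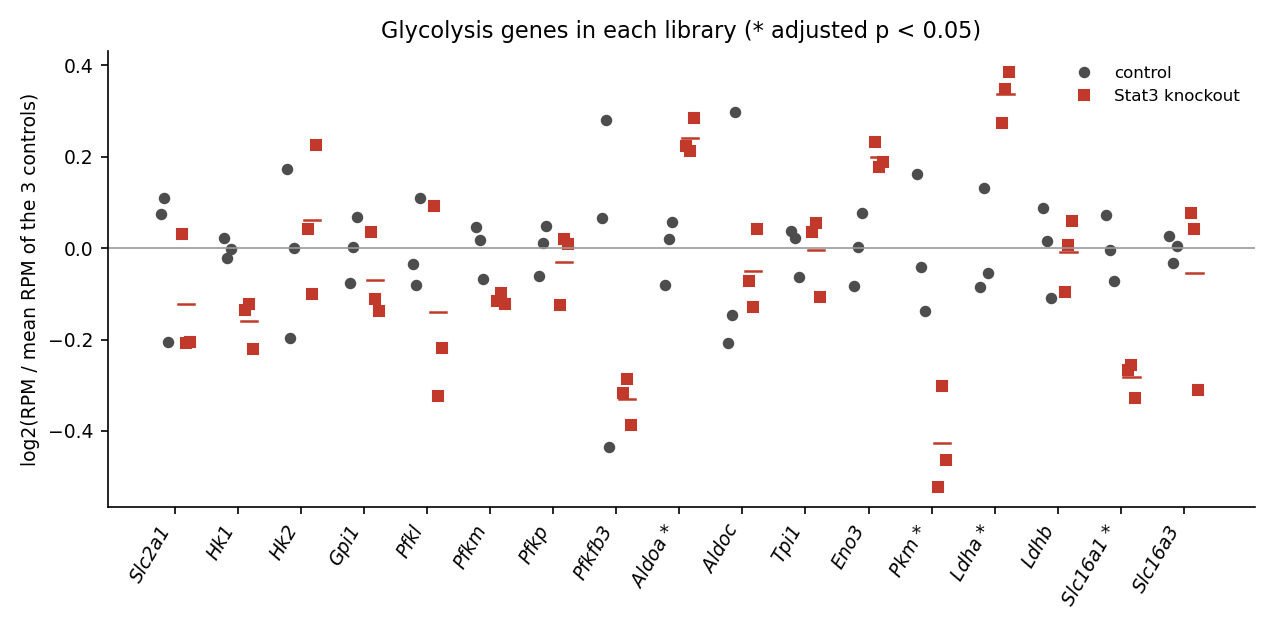
Each of the 17 measured glycolysis genes in pathway order (x axis), as log2 of RPM over the mean of the 3 controls (y axis), with control libraries as grey circles, knockout libraries as red squares and the knockout mean as a red line. Aldoa, Ldha and Eno3 lie above all their controls, and Pkm, Slc16a1, Hk1 and Pfkm below them. Eno3, Hk1 and Pfkm did not pass. The other genes overlap between the groups.

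Markers of several cell types moved with the groups, and their part in these and the hypoxia results was not tested. Skeletal muscle is rich in Aldoa, Eno3, Pfkm, Ldha and the M1 form of Pkm. The summed level of 18 muscle markers was 35234 to 38625 RPM in the controls against 31719 to 34123 in the knockouts, with no marker at 0, 7 lower and none higher (5 lower with TMM). In the knockout libraries, with the lower muscle sum, Aldoa, Eno3 and Ldha lay above the controls, and Pfkm and Pkm below them. Osteoclast markers (8 measured, 2 higher and 1 lower) summed to 757 to 820.4 RPM in the controls against 1070.2 to 1096 in the knockouts, and macrophage markers (9 measured, 4 higher and 1 lower of 8 tested) to 386 to 409 RPM in the controls against 485 to 523 in the knockouts. Neutrophil markers (7 measured, all 5 tested lower) summed to 88.4 to 90.1 RPM in the controls against 37.4 to 40.8 in the knockouts. Chondrocyte markers (11 measured) summed to 1606 to 1628 RPM in the controls against 1660.2 to 1668 in the knockouts, while 6 of the 10 tested fell and 1, Col11a1, rose (4 and 1 with TMM). Osteoblast markers (8 measured, 7 lower, or 6 with TMM) summed to 37219 to 40459 RPM in the controls against 31865 to 36750.0 in the knockouts. The endothelial sum of 8 markers (2 lower and none higher of 7 tested) overlapped, at 640.4 to 690.1 RPM in the controls against 645 to 686 in the knockouts. The erythroid sum of 10 markers (1 higher and none lower of 5 tested) did too, at 76.2 to 90.1 RPM in the controls against 85.0 to 96.1 in the knockouts. A sum weights its most read amplicons, so each was also taken, as a choice made after seeing the data, without the marker that differed most. Without Lyz2 the macrophage sums were 243 to 272 RPM in the controls and 263 to 288 RPM in the knockouts, and overlapped. Without Mmp9 the osteoclast sums were 359.98 to 399 RPM and 399 to 429 RPM, and were nearly adjoining. Without Col11a1 the chondrocyte sums turned, to 586 to 622 RPM and 406 to 453 RPM. The osteoblast sums, with or without Ibsp, rested mostly on Col1a1, the 1 marker that did not pass (log2 fold change -0.06). Without Ibsp they overlapped. Without Cdh5 the endothelial sums were 448 to 458 RPM and 475 to 509 RPM. Without Alas2 the erythroid sums were 26.3 to 31.6 RPM in the controls and 21.9 to 29.5 RPM in the knockouts, and overlapped. The muscle sums without Mylpf and the neutrophil sums without S100a9 were still lower in all 3 knockouts.

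Ratios of RPM within a library are free of the library scaling and so bypass the choice of scaling factor. They were chosen after the values were seen and are given without a test, and the size of a ratio has no meaning of its own because the amplicons differ. Ldha over Pkm was 1.21, 1.62 and 1.52 in the controls against 2.49, 2.25 and 2.59 in the knockouts, so its mean was 1.69 times as high in the knockout. Aldoa over Pkm was 0.918, 1.13 and 1.24 in the controls against 1.82, 1.55 and 1.83 in the knockouts, a factor of 1.58. Both ratios separate the groups with no overlap. This had to follow, as the knockouts lay above all controls for Ldha and Aldoa and below them for Pkm. The same holds for the next ratio, with Slc16a1 below. Ldha over Slc16a1 was 21.0, 25.8 and 23.8 in the controls against 34.1, 35.7 and 38.5 in the knockouts, a factor of 1.54. Ldha over its partner subunit Ldhb was 27.3, 33.4 and 32.0 in the controls against 39.8, 39.0 and 38.6 in the knockouts, a factor of 1.27, with a narrow spread among the knockouts.

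**Figure D2:**
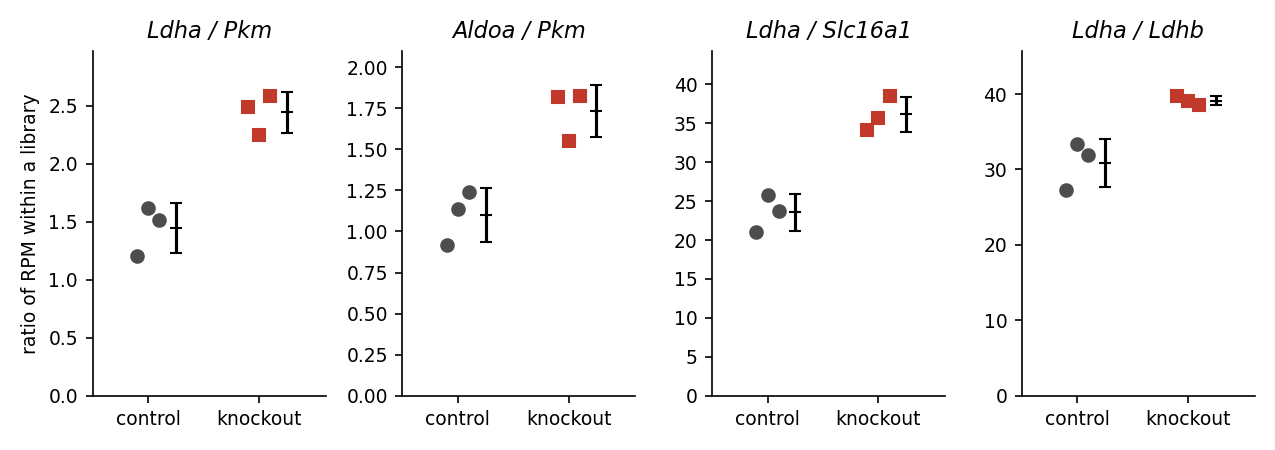
Ratio of RPM of 2 genes within each library (y axis, starting at 0) for controls (grey circles) and knockouts (red squares), with the mean and SD of 3 libraries in black beside the points. In each of the 4 panels the 3 knockout libraries lie above the 3 controls, by a factor of 1.27 to 1.69 in the means. Over Pkm and Slc16a1 this had to follow, because each gene alone already separated the groups, in opposite directions.

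The hypoxia members were led by Ddit4, and the regulator Hif1a did not pass. HIF-1 alpha is controlled mainly at the protein level, so its transcript says little about its activity. Hif1a was at 86.6, 90.5 and 103 RPM in the control libraries against 79.3, 94.0 and 82.7 in the knockouts, overlapping, with a log2 fold change of -0.13 (interval -0.32 to 0.07, adjusted p = 0.377). The prolyl hydroxylase genes Egln1 and Egln3 encode oxygen sensors that are themselves induced by HIF. Egln1 was at 53.7, 56.3 and 62.1 RPM in the control libraries against 63.3, 63.9 and 64.4 in the knockouts, above the controls in all 3 knockouts but not past the threshold (log2 fold change 0.16, adjusted p = 0.262). Egln3 was at 14.4, 14.1 and 14.1 RPM in the control libraries against 15.8, 18.3 and 14.2 in the knockouts and overlapped (log2 fold change 0.16).

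The next 5 HIF-induced members did not pass. Pdk1, whose kinase blocks pyruvate dehydrogenase, was at 40.9, 36.6 and 29.2 RPM in the control libraries against 41.7, 41.7 and 39.8 in the knockouts, where control replicate 3 was low and the groups overlapped (log2 fold change 0.21, interval -0.02 to 0.45). Bnip3, which marks mitochondria for removal, was at 19.9, 20.3 and 14.7 RPM in the control libraries against 13.6, 14.5 and 17.8 in the knockouts and overlapped (log2 fold change -0.24, interval -0.53 to 0.05). Car9, a carbonic anhydrase that handles the acid from glycolysis, is among the most specific HIF-1 targets. It was low, at 8.85, 8.97 and 8.29 RPM in the control libraries against 7.03, 6.90 and 7.67 in the knockouts, and each knockout lay below each control, without passing (log2 fold change -0.24, adjusted p = 0.273). Kdm3a, a histone demethylase, was at 48.4, 54.3 and 55.6 RPM in the control libraries against 51.7, 49.0 and 51.1 in the knockouts. Ankrd37, a small HIF target, was at 5.93, 5.01 and 6.98 RPM in the control libraries against 5.93, 6.79 and 7.16 in the knockouts. Both overlapped.

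The genes for signals that HIF sends to vessels overlapped between the groups. Vegfa, the main vessel growth factor, was at 83.3, 92.5 and 84.7 RPM in the control libraries against 99.2, 86.2 and 80.1 in the knockouts, with a log2 fold change of 0.02 (interval -0.17 to 0.22, adjusted p = 0.896). Adm, the vessel-dilating peptide adrenomedullin, had the fewest reads of any member, at 2.92, 4.04 and 2.96 RPM in the control libraries against 3.05, 3.94 and 1.84 in the knockouts, and knockout replicate 3 lay apart. Ndrg1, a stress- and hypoxia-induced gene, was at 39.7, 34.2 and 39.5 RPM in the control libraries against 38.4, 36.4 and 35.2 in the knockouts.

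Of the 13 hypoxia members 1 rose and 1 fell, and both have a link to cell stress. Ddit4 encodes REDD1, which restrains mTORC1 and is induced by low oxygen, energy stress and glucocorticoids (AMPLDdit4_2_1.3435, chromosome 10, 59949669 to 59951834). It was at 76.1, 64.4 and 53.2 RPM in the control libraries against 94.4, 100.5 and 116 in the knockouts. All knockouts lay above all controls, and the gene rose from 64.6 ± 11.4 to 104 ± 11.1 RPM (SD over 3 libraries each). Its log2 fold change of 0.68 ± 0.11 (SE, limma, adjusted p = 2.03e-04) was the greatest of the 30 members, and it passed in 19 of 19 fits (adjusted p 1.57e-07 to 0.00736). Ero1l encodes the oxidase that forms disulfide bonds in the endoplasmic reticulum, where collagen is folded (AMPLEro1l_2_1.7498, chromosome 14, 45283087 to 45318771). It was at 33.8, 31.2 and 25.2 RPM in the control libraries against 22.2, 22.1 and 21.6 in the knockouts. The knockouts were tightly grouped below all controls, and the gene fell from 30.1 ± 4.39 to 22.0 ± 0.344 RPM (SD over 3 libraries each). Its log2 fold change was -0.43 ± 0.12 (SE, limma, adjusted p = 0.0171). It passed in 15 of 19 fits, and the adjusted p was 0.0626 with quantile normalization, 0.101 without control replicate 1, 0.0814 without control replicate 2 and 0.0519 without knockout replicate 2. Over the 19 fits, all lower, it ranged from 0.00510 to 0.101.

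**Figure D3:**
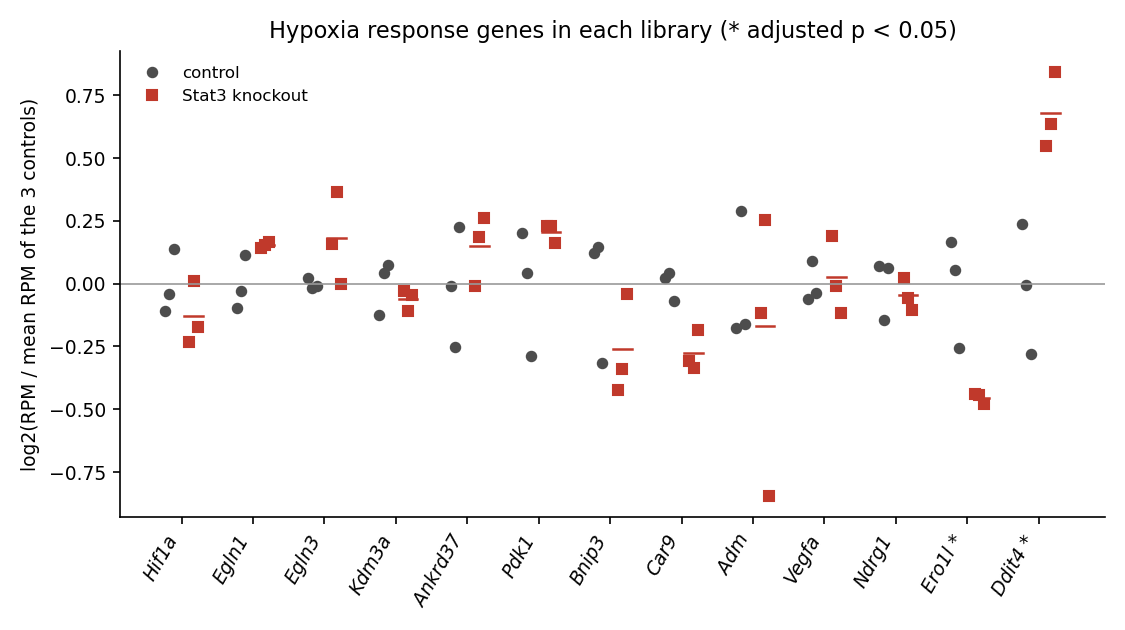
Each of the 13 hypoxia members (x axis) as log2 of RPM over the mean of the 3 controls (y axis), with controls as grey circles, knockouts as red squares and the knockout mean as a red line. Ddit4 lies above and Ero1l below all controls, while most other genes overlap, among them Hif1a, Vegfa and Pdk1.

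**Figure D4:**
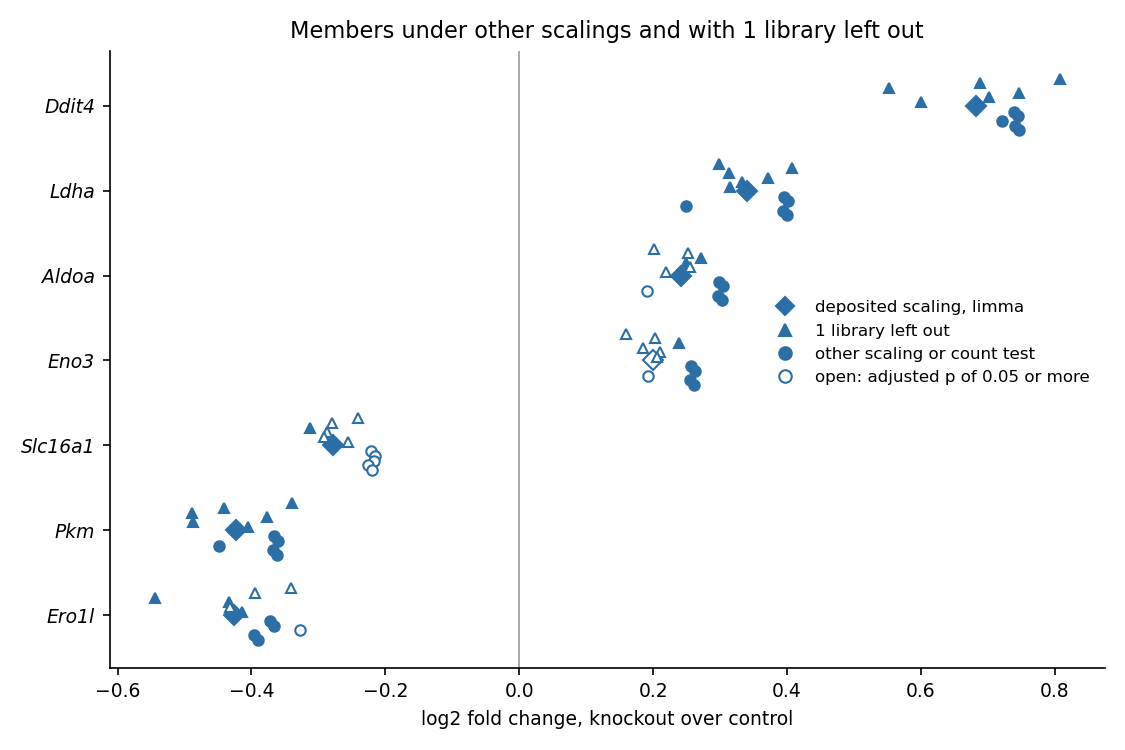
Log2 fold change (x axis) of the 6 members that passed and of Eno3 (y axis) in limma with the deposited scaling (diamonds), with 1 library left out (triangles) and with other scalings or count tests (circles), open where the adjusted p was 0.05 or more. No gene crosses 0, Ddit4 and Pkm are filled throughout, and Slc16a1 is open for all 5 other scalings and count tests.

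Genes next to these pathways give the context, on lists set by function but chosen with earlier results of these data known. Among 20 tested glycolysis isoforms and regulators outside the members, 4 fell (20%, against 11.0% of all amplicons) and none rose (against 5.71%), with a list median of -0.057 against -0.061 for all amplicons. Pck2, the mitochondrial PEP carboxykinase, fell from 24.6 ± 1.14 to 14.9 ± 2.42 RPM (log2 fold change -0.69, limma, adjusted p = 8.43e-04). Pfkfb4, a HIF-induced relative of Pfkfb3, fell from 6.33 ± 0.526 to 3.69 ± 0.810 RPM (log2 fold change -0.66, adjusted p = 0.0139, and 0.0722 to 0.0731 without the filter on low values or without control replicate 2). The glucose transporter gene Slc2a12 fell from 11.3 ± 1.54 to 7.11 ± 1.08 RPM (log2 fold change -0.60, adjusted p = 0.0110, and 0.0603 to 0.0832 without the filter on low values or without control replicate 2). Of 10 pentose phosphate genes none passed with the deposited scaling, where 16.7% of all amplicons did. With limma after TMM scaling, with edgeR and with DESeq2 1 was higher. Of 17 glycogen genes 1 rose (Ugp2, 0.27) and 1 fell (Gys1, -0.43), and the Gys1 groups overlapped. That is 5.88% each, against 5.71% of all amplicons higher and 11.0% lower. With TMM scaling and with edgeR 3 glycogen genes were higher and 1 lower, and with DESeq2 3 and 0. Over all amplicons 8.11% were higher with TMM, 8.19% with edgeR and 7.92% with DESeq2. The lower shares were 7.22%, 7.18% and 6.15%. The Ugp2 call was lost, with an adjusted p of 0.0594 to 0.105 without the filter on low values or without control replicates 1 or 3 or knockout replicates 2 or 3, and so was that of Gys1, with 0.0523 to 0.154 without the filter on low values, with quantile normalization, with robust variances, with DESeq2 or without control replicates 1 or 2 or knockout replicates 2 or 3.

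The next list holds genes for the entry of pyruvate into mitochondria, among them the pyruvate dehydrogenase complex. Of 13 tested genes 2 rose and 2 fell (15.4% each, against 5.71% and 11.0% of all amplicons). The pyruvate dehydrogenase subunit Dlat was at 133, 147 and 133 RPM in the control libraries against 197, 189.8 and 188 in the knockouts and rose (log2 fold change 0.48, limma, adjusted p = 2.45e-04), and the catalytic subunit Pdha1 rose from 524 ± 33.9 to 622 ± 20.6 RPM (log2 fold change 0.25, adjusted p = 0.0219, and 0.0527 to 0.112 without the filter on low values or without control replicates 1 or 2 or knockout replicates 1 or 3). Pdhx, which anchors the E3 enzyme in the same complex, fell from 46.7 ± 5.16 to 34.8 ± 1.38 RPM (log2 fold change -0.41, adjusted p = 0.0102, and 0.0643 without control replicate 1). The inhibitory kinase gene Pdk3, a HIF target, fell from 60.8 ± 1.41 to 47.5 ± 3.02 RPM (log2 fold change -0.35, adjusted p = 0.0126, and 0.0515 without control replicate 2). The kinase genes Pdk2 and Pdk4, named after their values were seen, did not pass. SDs are over 3 libraries in each group throughout these lists.

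Of 13 tested oxygen sensing genes outside the members, 6 fell and none rose (46.2% lower, against 11.0% of all amplicons), with a median of -0.22 against -0.06. The list was chosen with earlier results of these data known, so this excess is no independent finding. With TMM scaling 4 fell (7.22% of all amplicons did), with a median of -0.16 against -0.01, with edgeR 4 fell (7.18% of all) and with DESeq2 3 fell (6.15% of all). All 13 log2 fold changes were below 0 with the deposited scaling and 12 with TMM. The oxygen sensor genes Egln1 and Egln3, counted with the members and not in this list, had log2 fold changes of 0.16 and 0.16 and did not pass. Hif1an encodes the asparagine hydroxylase FIH, which silences the activation domain of HIF. It was at 21.3, 23.2 and 19.1 RPM in the control libraries against 13.7, 14.2 and 11.3 in the knockouts and fell by 0.66 on the log2 scale (limma, adjusted p = 0.00155). Hif3a, whose product can restrain HIF-1, was at 75.3, 56.1 and 61.5 RPM in the control libraries against 49.1, 47.4 and 34.5 in the knockouts and fell by 0.55 (adjusted p = 0.00404). Both passed in all 19 fits.

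The other 4 that passed are not all specific to oxygen sensing. Crebbp and Ep300 encode acetyltransferases that serve HIF and many other transcription factors. Crebbp was at 80.0, 73.6 and 73.1 RPM in the control libraries against 52.5, 54.7 and 43.2 in the knockouts and fell by 0.59 (limma, adjusted p = 3.27e-04) in all 19 fits. Ep300 was at 94.4, 102 and 115 RPM in the control libraries against 77.9, 82.9 and 86.0 in the knockouts and fell by 0.33 (adjusted p = 0.0149, and 0.0515 to 0.0756 with median-of-ratios scaling, with DESeq2 or without control replicates 2 or 3 or knockout replicate 1). Cited2, which competes with HIF for both, fell by 0.33 (adjusted p = 0.0255), but the adjusted p was 0.0565 to 0.0915 with TMM scaling, with median-of-ratios scaling, with quantile normalization, with edgeR, with DESeq2 or without control replicates 1, 2 or 3 or knockout replicates 1 or 3. Tceb2 encodes elongin B of the VHL ligase. It fell by 0.22 (adjusted p = 0.0382), and the adjusted p was 0.0794 to 0.174 without the filter on low values, with TMM scaling, with median-of-ratios scaling, with edgeR, with DESeq2 or without control replicates 1 or 2 or knockout replicates 1 or 2. Vhl itself and Epas1, which encodes HIF-2 alpha, did not pass (named after their values were seen), with log2 fold changes of -0.09 and -0.16.

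Of 29 further HIF-induced genes tested, 4 rose and 3 fell (13.8% and 10.3%, against 5.71% and 11.0% of all amplicons), with a list median of 0.04 against -0.06 for all amplicons. With TMM, edgeR and DESeq2 5 were higher and 3 lower. Over all amplicons 8.11%, 8.19% and 7.92% were then higher, and 7.22%, 7.18% and 6.15% lower. The groups did not overlap for 4 of the 29 with the knockout above and 8 with it below, against 11.9% and 21.9% of all tested amplicons. Plod2, a collagen lysyl hydroxylase, was at 262, 278 and 281 RPM in the control libraries against 369.9, 357 and 394 in the knockouts and rose by 0.45 on the log2 scale (limma, adjusted p = 2.38e-04). Mxi1, a MYC antagonist, rose by 0.35 (adjusted p = 0.0238, and 0.0512 to 0.123 without the filter on low values or without control replicates 1 or 2 or knockout replicate 1). Wsb1, part of a ubiquitin ligase, rose by 0.31 (adjusted p = 0.0104, and 0.0603 without knockout replicate 1). Kdm4c, a histone demethylase, was at 61.5, 63.8 and 70.5 RPM in the control libraries against 70.5, 86.6 and 88.9 in the knockouts, overlapping, and rose by 0.32 (adjusted p = 0.0297, and 0.0729 to 0.129 without the filter on low values or without control replicates 1 or 2 or knockout replicates 2 or 3). These 3 complete the count and were named after their values were seen. The 3 that fell were Pfkfb4, the lipase inhibitor Angptl4 (by 0.45, adjusted p = 0.0131, and 0.0537 to 0.0655 with quantile normalization or without knockout replicate 1) and the collagen cross-linking gene Lox (by 0.48, adjusted p = 5.39e-05). Plod2 and Lox, both collagen modifiers and both HIF targets, were thus called in opposite directions, each in 19 of 19 fits.

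**Figure D5:**
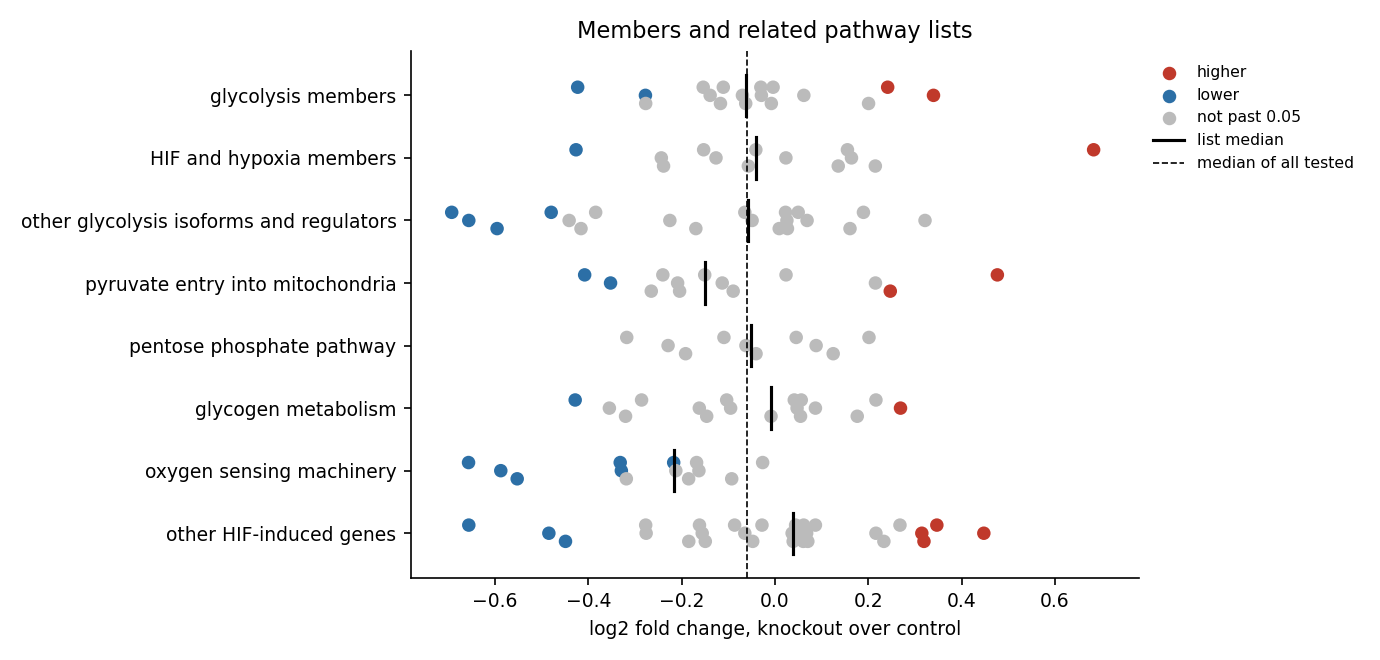
Log2 fold change of each tested gene (x axis) in the 2 member groups and 6 related lists (y axis), red if higher, blue if lower and grey if not past an adjusted p of 0.05, with the list median as a black bar and the median of all tested amplicons (-0.06) dashed. The 13 oxygen sensing genes all lie below 0, with Tceb1 (-0.03) to the right of the dashed line. Of the members 10 lie above 0 and 20 below.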

How the data were processed

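RNA was isolated with Trizol and read with the Ion AmpliSeq mouse transcriptome panel, per the labels' protocols. The authors deposited RPM values of 23930 amplicons in 6 columns, each summing to 1000000. No source used here names the aligner, counter or genome build. Values were whole multiples of 1 read's worth (100% within 0.1 read), so the reads could be recovered: 9126493 to 13376550 per library, with 1 read worth 0.0748 to 0.110 RPM. Counting carried no molecular identifiers, so reads are not independent molecules.

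The 12846 amplicons at or above a mean of 1 RPM were put on a log2(RPM + 1) scale, which understates changes of low genes. Controls and knockouts (3 each) were compared with limma 3.58.1 in R 4.3.3 (empirical Bayes with a trend, two-sided, Benjamini-Hochberg over all, threshold 0.05), with 95% intervals from the same fit. The 18 alternatives, making 19 fits, were pseudocounts of 0.1 and 10 RPM, no filter, a filter at 5 RPM, TMM, median-of-ratios and quantile scaling, robust variances, sample weights, a replicate block, edgeR 4.0.16 and DESeq2 1.42.0 on the recovered reads, and each of the 6 libraries left out. The fit was tested on simulated data. Gene positions are GENCODE M21 (GRCm38) gene bodies matched by symbol, not amplicon positions. All members are named, with up to 4 called genes of each related list by size of change, and any others are marked. Some genes that are counted in these lists are not reported here by name. Members and lists were chosen with earlier results of these data known.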

Additional observations from a re-analysis of the deposited data

How the results depend on the processing

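No member that passed changed direction under the 18 alternatives, and 10 of the 24 that did not pass changed sign in at least 1. The count of lower genes over all amplicons, 1409, was 869 without a filter on low values, 928 with TMM, 881 with median-of-ratios and 877 with quantile scaling, 922 with edgeR and 775 with DESeq2. With 1 library left out it was 729 to 1324, and that of higher genes (733) 442 to 705. The libraries that moved both counts most were control replicate 1 (481 higher and 749 lower without it), control replicate 2 (442 and 729) and knockout replicate 2 (466 and 855). Higher glycolysis members (2) numbered 0 without the filter, 1 with quantile scaling and 1 to 3 with a library left out. Lower ones (2) numbered 1 with TMM, median-of-ratios and quantile scaling, edgeR and DESeq2, and 1 to 3 with a library left out. The lower hypoxia member was lost (0) with quantile scaling, and 0 to 1 remained with a library left out. Related pathway genes higher (7) numbered 3 without the filter and 3 to 6 with a library left out, and those lower (15) 8 to 17. Lower oxygen sensing genes (6) numbered 3 with median-of-ratios scaling and DESeq2, and 3 to 5 with a library left out. With 1 library left out an arm has 2 samples. Same-numbered control and knockout samples did not deviate together (correlations of 0.01, -0.02 and 0.11), so the numbers are not taken to pair samples. With the replicate block 836 genes were higher and 1626 lower, and no member's call changed. Depth limits the low members most, such as Adm and Aldoc.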
